A study of Penicillium oxalicum with 15 samples.

Results

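The 80 genes described here were among the most abundant transcripts of Penicillium oxalicum in all 5 groups of the series, and their group means moved by less than 2-fold with the carbon source and by less than 2-fold with the POX03016 mutation. They were chosen from the measured values. A gene entered if its mean FPKM (fragments per kilobase of gene, scaled to the size of the library) ranked among the 300 highest in every group, if the largest of the 3 means of strain EU2101 was under 2 times the smallest, and if the ratio of MuPOX03016 to MuKu70 lay above 0.5 and below 2. Of the 9512 identifiers listed in any file, 114 were within the 300 highest in every group and 80 of these met both fold limits. Of the other 34, 24 missed the EU2101 limit alone, 2 the mutant limit alone and 8 both.

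Penicillium oxalicum is a mould of the ascomycetes, known for the cellulases and xylanases it releases on plant material. In fungi the most abundant transcripts of a growing mycelium commonly encode parts of the machinery that every cell runs, such as ribosomal proteins, translation factors, histones and enzymes of glycolysis, beside secreted proteins. Transcripts whose level stays constant are used as internal standards in quantitative PCR. None of the 9512 identifiers matched the 9964 genes of the RefSeq table of strain HP7-1, so the members are given by identifier, no role can be assigned to them, and no list by function or sequence is shown.

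The libraries came from mycelium of unshaken solid-state cultures, kept for 5 days at 28 °C, with 20 mL of a salt solution added to 10 g of the carbon source. The groups, each of 3 libraries, were strain MuPOX03016 on WR, strain MuKu70 on WR (titled Ku70), and strain EU2101 on WR (titled WB_RS), on WB plus AV (called WA in the growth field) and on WB. The labels abbreviate the carbon sources, do not say how the strains were made or whether a strain is 1 clone, and do not say whether replicates were separate cultures, so the p-values below measure only how far these samples spread, and that spread may be technical. Ku70 takes part in the repair of broken DNA ends, and its loss is often used in moulds to make targeted gene replacement easier.

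The estimated counts summed to between 6609605 and 7335888 in the 6 mutant libraries and to between 1782848 and 3414915 in the 9 EU2101 libraries. Members were well covered, with between 140 and 48006 counts in any library, the lowest being POX05497 in replicate 3 on WB. The targeted gene POX03016 is no member and checks the labels. It stood at 18.5, 19.9 and 17.9 FPKM in MuPOX03016 against 87.4, 139 and 88.9 FPKM in MuKu70, and at 75.5, 241 and 98.3 FPKM in EU2101 on WR. The EU2101 and the mutant files differ in the gene length behind the values, which can be read from the ratio of count to FPKM, and replicate 1 on WB stands apart from its group. Both bear on the members and are taken up with the results they touch.

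The members made up 13.95, 14.18 and 14.58% of the FPKM sum in the MuPOX03016 libraries and 14.78, 14.46 and 14.61% in the MuKu70 libraries, against 10.23, 10.82 and 10.81% in EU2101 on WR. On WB plus AV the share was 10.89, 10.86 and 10.72%, and on WB 11.54, 11.12 and 10.70%. The 6 mutant libraries lay above all 9 EU2101 libraries, while the 3 carbon sources overlapped. The rule bounded the ratios within EU2101 and between the mutants but not the ratio between MuKu70 and EU2101. As a share of counts the mutants were again above EU2101, at 9.78 ± 0.27% in MuPOX03016, 9.81 ± 0.17% in MuKu70 and 7.24 ± 0.23% in EU2101 on WR (SD, n = 3 each), with 7.17 ± 0.29% on WB plus AV and 7.73 ± 0.36% on WB. The 34 other abundant genes lay the other way, with 8.54 ± 1.32% of the FPKM sum in MuPOX03016, 6.26 ± 0.96% in MuKu70 and 14.82 ± 0.91% in EU2101 on WR, and with 11.31 ± 1.63% on WB plus AV and 10.18 ± 0.81% on WB (SD, n = 3 each). Their MuPOX03016 libraries, at 7.10 to 9.71%, overlapped with those on both of these sources. Of these 34, 24 were left out by the EU2101 limit alone and 8 by both limits. Their differences between the EU2101 groups, WR included, thus follow from the values that left them out. Their shares are a description only and no test of the members. In bulk samples such as these, fewer cells with a transcript and less of it per cell cannot be told apart.

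**Figure D1:**
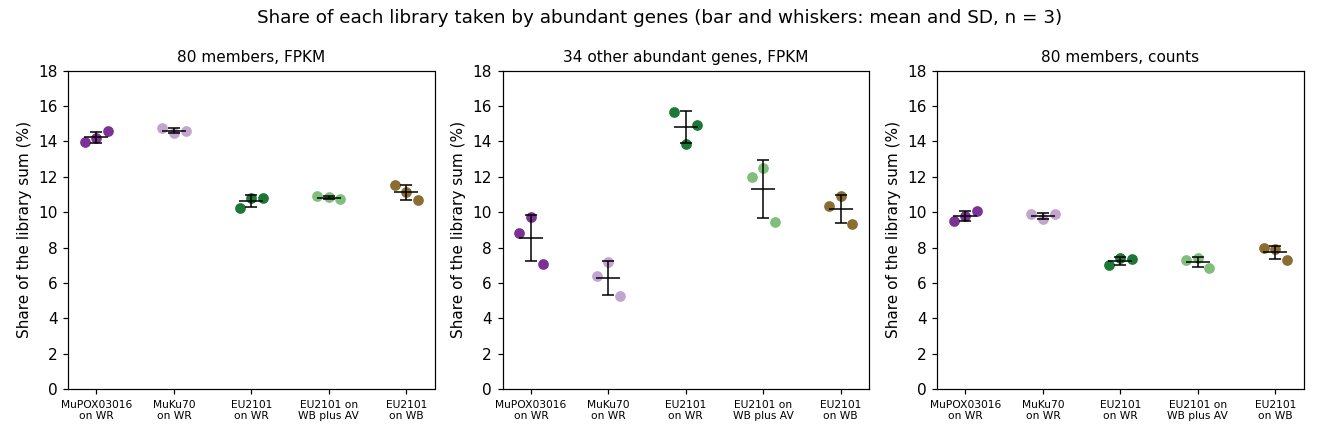
Share of each library (%, y axis) taken by the 80 members in FPKM, by the 34 other abundant genes in FPKM, and by the 80 members in counts, for the 5 groups (x axis). Points are libraries, bars and whiskers the mean and SD of 3. The members take 13.95 to 14.78% of the FPKM sum in the mutant libraries and 10.23 to 11.54% in the EU2101 libraries.

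Single members ranged from a group mean of 466 FPKM (POX06028 on WB) to 8047 FPKM (POX02073 in MuKu70). The median member stood at 1218 FPKM in MuPOX03016, 1272 in MuKu70, 1004 in EU2101 on WR, 1005 on WB plus AV and 1015 on WB. About as many members were within the 100 highest genes in each group, 40 in MuPOX03016, 41 in MuKu70, 39 on WR, 38 on WB plus AV and 39 on WB. In single libraries, 60 of the 80 were within the 300 highest in all 15, and the number per library was lowest in replicates 3 and 2 on WB, at 66 and 68, and between 76 and 80 elsewhere.

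The 6 members with the highest mean over the groups were POX02073, POX06702, POX02072, POX06516, POX09287 and POX06393. POX06702 held the best lowest rank of all members, never below rank 21. It stood at 2872, 2939 and 3072 FPKM in MuPOX03016 and 3050.4, 2742 and 3204 FPKM in MuKu70, against 4648, 4938 and 4651 FPKM in EU2101 on WR. It stood at 4240.2, 3411 and 3531 FPKM on WB plus AV and at 3606, 2763 and 2475 FPKM on WB. Its 3 libraries of EU2101 on WR were thus above all others, and the mutants overlapped with WB. POX06516 stood at 3951, 4267 and 4666 FPKM in MuPOX03016 and 4645, 4072 and 6886 FPKM in MuKu70, against 2769, 2314 and 2176 FPKM in EU2101 on WR. Both mutants lay above EU2101 without overlap. POX06393 stood at 3233, 4160.3 and 3806 FPKM in MuPOX03016 and 4302, 3741 and 3982 FPKM in MuKu70, against 2207, 2962 and 2494 FPKM in EU2101 on WR, without overlap in FPKM. In counts scaled to library size its MuKu70 and WR libraries overlapped. It was not called there in the count test given below (log2 fold change 0.40, SE 0.15, edgeR adjusted p = 0.0507). Its length was 337 bp in the EU2101 and 267 bp in the mutant files. POX09287 stood at 3014, 2189.8 and 2015 FPKM in MuPOX03016, 2997, 3308 and 1989.6 FPKM in MuKu70 and 1935, 2724 and 2739 FPKM in EU2101 on WR. With 2316, 3219 and 4404 FPKM on WB plus AV and 3406, 3285 and 3607 FPKM on WB, its WB libraries lay above those of MuPOX03016 and WR, while 1 MuKu70 library, at 3308 FPKM, was above the lowest of them.

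The values by which the members were chosen are given as a description. Over the 3 EU2101 means, the ratio of largest to smallest ran from 1.01 (POX02144) to 1.98 (POX07813), with a median of 1.49, and 41 members stayed under 1.5. The ratio of MuPOX03016 to MuKu70 ran from 0.546 (POX01694) to 1.88 (POX01317), with a median of 0.962, and 74 members stayed within 1.5-fold. Just inside the rank limit were POX06028 and POX06042, each at rank 294 in its lowest group, and just outside were POX03294 and POX06961 at 301 and 306. Just inside the EU2101 limit, below POX07813, was POX06028 at 1.93, and just outside were POX04048 at 2.003 and POX04863 at 2.01. Outside the mutant limit the nearest genes, POX05915 and POX07408, stood at 2.28 and 2.92.

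Over all 5 group means the ratio cannot be smaller than over the EU2101 means or between the mutants, which the rule held under 2. The ratio of the largest to the smallest of the 5 means was under 2 in 52 members and 2 or more in 28, with 46.8% of the 8287 genes tested between MuKu70 and EU2101 on WR under 2. Because the rule's limits favour a ratio under 2, the count of 52 and that share are a description only. The members' ratio had a median of 1.77 and was under 1.5 in 15 members and over 3 in 10. Steady in this wider sense, with the step between the strains included, thus applied to 52 of the 80. Over the 15 single libraries the ratio of highest to lowest was under 2 in 19 members and over 5 in 14, with a median of 2.61.

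**Figure D2:**
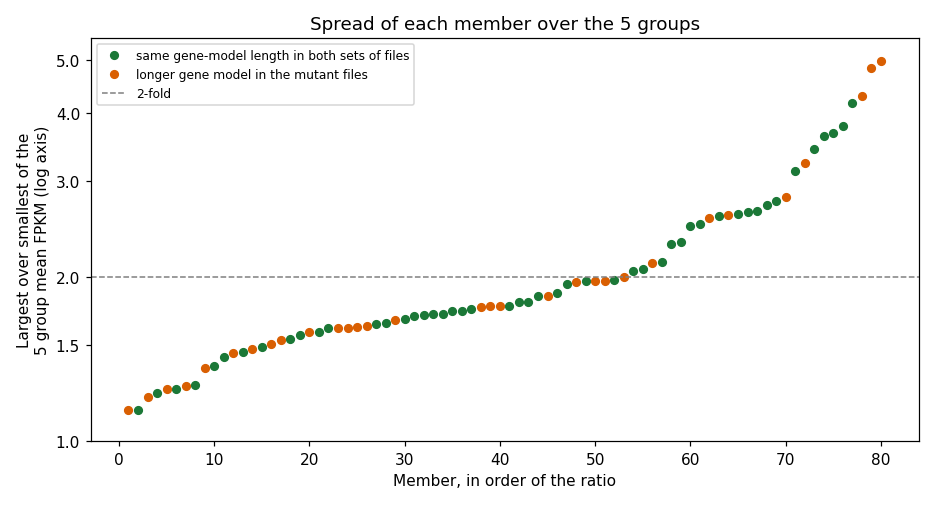
Ratio of the largest to the smallest of the 5 group mean FPKM (log y axis) for each of the 80 members in order of that ratio (x axis), with the dashed line at 2-fold. Green points have the same gene-model length in both sets of files and orange points a longer model in the mutant files. The ratio runs from 1.14 to 4.99, and 52 members lie under 2.

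The 4 members with the smallest ratio were POX06677, POX02144, POX02651 and POX01336. POX06677 stood at 666, 669 and 666 FPKM in MuPOX03016, 679, 686 and 622 FPKM in MuKu70 and 654, 698 and 714 FPKM in EU2101 on WR. It stood at 745, 709 and 729 FPKM on WB plus AV and at 811, 566 and 537 FPKM on WB. It also had the smallest coefficient of variation over the 15 libraries, 9.99%, and the libraries of WB alone lay outside the range of the other 12. POX01336, with a coefficient of variation of 10.7%, stood at 1366, 1119 and 1282 FPKM in MuPOX03016, 1097, 1185 and 1119 FPKM in MuKu70 and 1107, 1127 and 1074 FPKM in EU2101 on WR. It stood at 1216, 1377 and 1196 FPKM on WB plus AV and at 1200.3, 1535 and 1312 FPKM on WB. The MuKu70 and WR libraries of POX01336 overlapped, and its highest library, on WB, was 1.43 times its lowest.

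POX02144 had means of 576 ± 33.1 FPKM in MuPOX03016, 657 ± 62.1 in MuKu70, 604 ± 55.3 in EU2101 on WR, 603 ± 77.5 on WB plus AV and 611 ± 183 on WB (SD, n = 3 each). The large SD on WB came from 822 FPKM in replicate 1 against 518 and 493 FPKM in replicates 2 and 3. POX02651 averaged 624 ± 21.2 FPKM in MuPOX03016, 727 ± 34.2 in MuKu70, 706 ± 50.8 on WR, 603 ± 86.7 on WB plus AV and 727 ± 71.9 on WB.

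POX06677 was level between the strains on the scale per length but not in counts. The length behind its values was 517 bp in the EU2101 files and 1571 bp in the mutant files. In counts it took 1017, 1071 and 983 CPM (counts scaled to library size, with no correction for length) in MuKu70 against 343, 367 and 373 CPM in EU2101 on WR. POX02651 likewise had lengths of 707 bp in the EU2101 and 1373 bp in the mutant files, with 1005, 937 and 1010.0 CPM in MuKu70 against 470.0, 544 and 499 CPM in EU2101 on WR. POX02144 and POX01336 had the same length in both sets apart from the shift described next, and their largest over smallest group mean was 1.24 in counts for both. A ratio under 2 over all 5 groups held in both FPKM and counts for 31 of the 80 members. Among the 49 members of the same length apart from that shift, 30 were under 2 in FPKM and 29 in counts. Counts are not corrected for the length, and the share of all genes was not counted, so the 31 are a description only.

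All 80 members had such a length in both sets of files. Over 7290 genes the EU2101 lengths exceeded the mutant lengths by a common 71.3 bp, and 5194 of them (71.2%) matched in length once that shift was allowed for, within 20 bp. Of the members, 49 had the same length and 31 another, and all 31 were longer in the mutant files. The members were short, with a median length of 598 bp in the EU2101 files, against 629 bp for the 34 other abundant genes and 1255 bp for all genes with a length. The shift weighs more on short genes. POX07582, the shortest member, had 170 bp in the EU2101 and 109 bp in the mutant files, so that the same count share was worth more FPKM in the mutants.

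The comparison of MuKu70 with EU2101 on WR was not used by the rule, although the rank limit in both groups bounded how far members could differ. In edgeR's quasi-likelihood test on counts with Benjamini-Hochberg adjustment over all genes, 45 of the 80 members differed, 33 higher and 12 lower in MuKu70, where 62.8% of the 8287 tested genes differed, 31.5% higher and 31.3% lower. The change exceeded 2-fold in 25 members, where it did so in 34.4% of genes. The members' median log2 fold change was 0.36, against -0.01 over all tested genes. With upper-quartile scaling the median of all genes moved to -0.21 and that of the members to 0.16, so that the distance between them stayed at 0.37, and the calls became 31 higher and 19 lower among the members and 2030 higher and 3339 lower among all genes. Strain and set of files cannot be told apart in this comparison, because the libraries of MuKu70 and EU2101 come from different sets. In FPKM, which divides by the length in each set of files, MuKu70 was above WR without overlap in 40 members, where 27.3% of genes were, and below in 15, where 37.8% were. The ratio of means was above 2 in 8 members, where 9.24% of genes were, and below 0.5 in 2, where 18.7% were. FPKM carries the common shift of 71.3 bp, which favours short genes in the mutants. Members had a median of 598 bp against 1255 bp for all genes, so these shares are not of genes of like length.

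Length divided the members in this test. Among the 31 with a longer model in the mutant files 25 differed, 24 higher and 1 lower in MuKu70, where 78.5% of the 2096 tested genes of that kind differed, 68.1% higher and 10.4% lower. Among the 49 of the same length 20 differed, 9 higher and 11 lower, where 53.1% of the 5192 genes of that kind differed, 18.4% higher and 34.6% lower. Fitted on genes of the same length alone, 23 of the 49 members differed, 18 higher and 5 lower, where 51.4% of the genes differed, 26.6% higher and 24.9% lower. The split between higher and lower thus moved with the genes on which the libraries were scaled. The 7 members with the largest rises in counts all had a longer model in the mutant files.

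**Figure D3:**
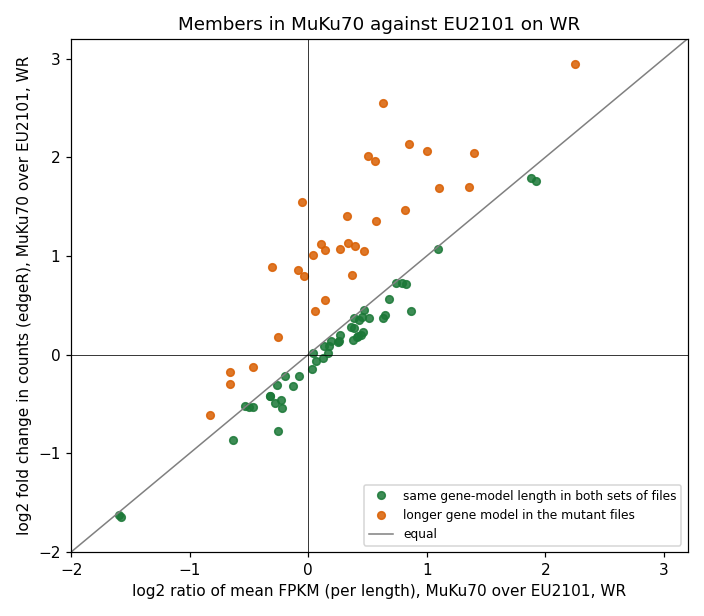
MuKu70 over EU2101 on WR for the 80 members, as the log2 ratio of mean FPKM (x axis) and the log2 fold change in counts from edgeR (y axis). Green points have the same gene-model length in both sets of files and orange points a longer model in the mutant files, and the grey line marks equal values. All 31 orange points lie above the line, with POX05767 highest at 2.95 in counts.

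Limma on log2(FPKM + 1) called 45 members, 33 higher and 12 lower, where it called 52.6% of 8767 genes, 21% higher and 31.6% lower. Here too the scale carries the shift, and the genes were mostly longer than the members. Both tests called 31 members in the same direction, 24 higher and 7 lower, where they did so for 48% of 8272 genes, 20.2% higher and 27.8% lower. POX05882, named here for its values, was called by both in opposite directions, with a log2 fold change of 0.89 in counts and a ratio of 0.807 in FPKM. Of the 31, 15 had the same length in both sets of files, 9 higher and 6 lower. The share of all genes of the same length that both tests called was not counted, so these counts are a description only.

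The largest rises of the same length were those of POX02072 and POX02073, which are also neighbours in identifier number. POX02073 stood at 7866, 5255 and 7665 FPKM in MuPOX03016 and 8494, 8178 and 7469.5 FPKM in MuKu70, against 2146, 2056 and 2162 FPKM in EU2101 on WR. It stood at 2352, 2410.4 and 3198 FPKM on WB plus AV and at 2262, 2038 and 2331 FPKM on WB. POX02072 stood at 5832, 4848 and 4851 FPKM in MuPOX03016 and 6379.6, 6779.8 and 5657 FPKM in MuKu70, against 1398, 1695 and 2019 FPKM in EU2101 on WR. Every mutant library of both genes was above every EU2101 library, and both ranked among the 7 highest genes in the mutants. In MuKu70 against EU2101 on WR the log2 fold changes were 1.76 (SE 0.15, edgeR adjusted p = 2.4e-05) for POX02073 and 1.79 (SE 0.19, edgeR adjusted p = 8.17e-05) for POX02072.

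The largest rises in counts were those of POX05767, POX04334, POX09046 and POX03784, with log2 fold changes of 2.95 (SE 0.22), 2.55 (SE 0.14), 2.14 (SE 0.18) and 2.06 (SE 0.19) and edgeR adjusted p of 1.32e-05, 2.86e-06, 2.44e-05 and 4.44e-05. All 4 had a longer model in the mutant files, and their FPKM ratios were smaller, at 4.76, 1.55, 1.8 and 2.01. POX05767 stood at 2961, 2550.4 and 2881 FPKM in MuPOX03016 and 2853, 2357 and 2796 FPKM in MuKu70, against 601, 433 and 647 FPKM in EU2101 on WR. It had the largest spread over the 5 groups, 4.99-fold, and its EU2101 libraries on the other sources, from 484 to 1309 FPKM, also lay below all mutant libraries. POX04334 stood at 824, 696 and 885 FPKM in MuKu70 against 515, 505 and 535 FPKM in EU2101 on WR. Its length was 535 bp in the EU2101 and 1977 bp in the mutant files. The counts of 11 members were not whole in at least 1 library, so reads may have been divided with another gene and these values are uncertain. Among the 11 were POX05767, POX04334 and POX09046, and also POX00108, POX06516, POX03022 and POX01317.

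The largest falls were those of POX01973 and POX05599, both of the same length in the 2 sets. POX01973 stood at 910.3, 831 and 694 FPKM in MuPOX03016 and 559.6, 682 and 419.6 FPKM in MuKu70, against 1354, 2071 and 1557 FPKM in EU2101 on WR. It stood at 1285, 2333 and 1536 FPKM on WB plus AV and at 1669, 2874 and 2381 FPKM on WB, so that all mutant libraries lay below all EU2101 libraries. POX05599 stood at 955, 1514 and 897 FPKM in MuPOX03016 and 672, 809 and 475 FPKM in MuKu70, against 2089, 1824 and 1994 FPKM in EU2101 on WR. The log2 fold changes in MuKu70 against EU2101 on WR were -1.65 (SE 0.22, edgeR adjusted p = 0.000325) for POX01973 and -1.62 (SE 0.21, edgeR adjusted p = 0.000292) for POX05599. POX07966 stood at 535, 537 and 549 FPKM in MuPOX03016 and 562, 569 and 553 FPKM in MuKu70, against 832, 875 and 916 FPKM in EU2101 on WR, with little spread within each group. POX07966 and POX07582 followed at -0.86 (SE 0.09, edgeR adjusted p = 9.75e-05) and -0.78 (SE 0.12, edgeR adjusted p = 0.000854). POX07582 was not called in limma on log2(FPKM + 1), where its log2 change was -0.26 (adjusted p = 0.0701).

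Over the whole series, 17 members had all 6 mutant libraries above all 9 EU2101 libraries in FPKM and 2, POX01973 and POX07966, had them all below, where 8.94% of the 8287 genes lay above and 19.3% below. Of the 17, 8 had the same length in both sets of files apart from the common shift, which weighs more on short genes. Of these 8, POX05497, POX06393 and POX09666 were not called in counts between MuKu70 and EU2101 on WR (edgeR adjusted p = 0.0924, 0.0507 and 0.195). The rest of the 8 were called higher. The mean of both mutants exceeded all 3 EU2101 means in 35 members, where it did in 20.9% of the 8287 genes, and lay under all 3 in 16, where it did in 40%.

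**Figure D4:**
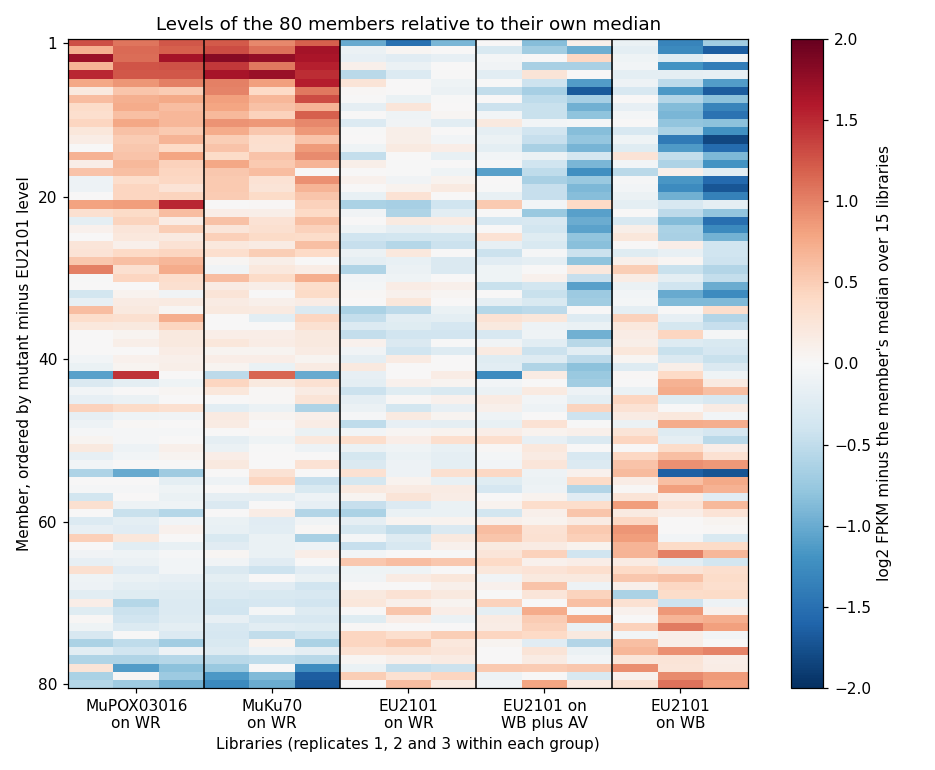
Log2 FPKM of the 80 members (rows, ordered by the mutant minus the EU2101 level) in the 15 libraries (columns, by group), relative to each member's own median, on a colour scale from -2 (blue) to 2 (red). The upper rows are red in all mutant libraries, including the 17 members with no overlap, and many of them are blue in replicates 2 and 3 but not in replicate 1 on WB.

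Some members had the same lowest and highest group. For 20 of them WB was the lowest and MuKu70 the highest group, and in 19 of these the EU2101 means stood in the order WB, WB plus AV and WR from low to high. Among these were POX00108, POX03758, POX06516, POX06393, POX03022, POX09666 and POX09667. Their median length in the EU2101 files was 377 bp against 787 bp for the other members. In counts, 19 of the 20 again had MuKu70 highest and WB lowest. Of the 20, 12 had the same length in both sets of files. In MuKu70 against EU2101 on WR 3 of those 12 were called higher, where 18.4% of the 5192 genes of the same length were. These genes were grouped after their values were seen, and no test was made of the grouping. How many of all genes had this order was not counted, so it cannot be called particular to the members. The EU2101 means in it are also those that the rule used.

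POX00108 had the largest coefficient of variation over the 15 libraries, 65.2%. It stood at 1514, 2026 and 2118 FPKM in MuPOX03016 and 2278, 1972 and 2912 FPKM in MuKu70, against 846, 946 and 921 FPKM in EU2101 on WR. In EU2101 it was lower on the other sources, with 745, 566 and 467 FPKM on WB plus AV and 803, 383 and 294 FPKM on WB, and lowest in replicates 2 and 3 on WB. POX03758 had a like course, with means of 1826 ± 389.8 FPKM in MuPOX03016, 2188 ± 374 in MuKu70, 855 ± 61.2 in EU2101 on WR, 637 ± 154 on WB plus AV and 509 ± 272 on WB (SD, n = 3 each). Both were higher in MuKu70 than in EU2101 on WR, by log2 fold changes of 2.05 (SE 0.16, edgeR adjusted p = 1.78e-05) and 1.70 (SE 0.17, edgeR adjusted p = 5.28e-05), and both had a longer model in the mutant files.

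POX09666 and POX09667, also neighbours in number, had lengths that agreed between the sets apart from the shift. POX09666 stood at 1903, 2437 and 2740.4 FPKM in MuPOX03016 and 2414, 2171 and 2534 FPKM in MuKu70, against 1713, 1853 and 1649 FPKM in EU2101 on WR. It stood at 1584, 1241 and 1007 FPKM on WB plus AV and at 1623, 646 and 485 FPKM on WB. POX09667 stood at 1563, 869 and 666 FPKM on WB, so that replicate 1 was the highest WB library of both by a wide gap. Neither was called between MuKu70 and EU2101 on WR in counts, with log2 fold changes of 0.19 (edgeR adjusted p = 0.195) and 0.18 (edgeR adjusted p = 0.28), while limma on log2(FPKM + 1) called both higher in MuKu70, by 0.45 (adjusted p = 0.0144) and 0.43 (adjusted p = 0.0391). The remaining pairs of members with consecutive numbers, POX00448 with POX00449 and POX04334 with POX04335, did not share the whole order of the groups. POX00448 and POX00449 were both lowest in MuKu70 and next lowest in MuPOX03016, and differed in the order of the EU2101 means. POX04334 was highest in MuKu70 and POX04335 on WB.

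**Figure D5:**
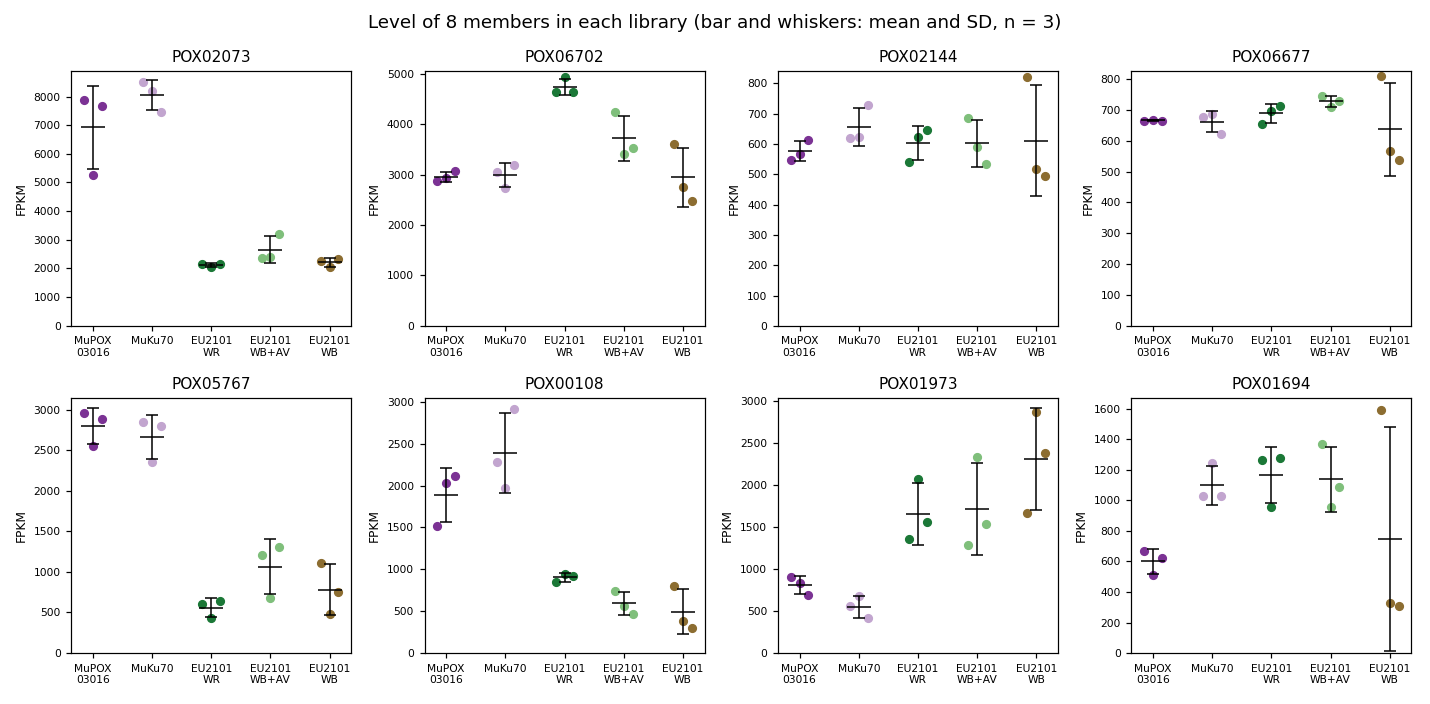
FPKM (y axes, from 0) of 8 members in each library of the 5 groups (x axes). Points are libraries, bars and whiskers the mean and SD of 3. POX02144 and POX06677 stay between 493 and 822 FPKM, POX02073, POX05767 and POX00108 are higher and POX01973 lower in the mutants, and POX01694 has 1 WB library at 1591 FPKM and the others at 331 and 310.2.

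Replicates differed most on WB. Within that group 23 of the 80 members spread by more than 2-fold between replicates, against 2 in MuPOX03016, 2 in MuKu70, 0 in EU2101 on WR and 6 on WB plus AV. The median coefficient of variation between replicates was 10.5% in MuPOX03016, 9.4% in MuKu70, 7.2% in EU2101 on WR, 20.5% on WB plus AV and 26.3% on WB. Over all genes with means of at least 10 FPKM it was 10.4, 9.3, 10.9, 20.5 and 26.7% in the same order, close to the members' values except on WR. In 65 of the 80 members the largest ratio between replicates of an EU2101 group exceeded the ratio between the EU2101 means. The rule held the ratio between the means under 2 but set no limit on the ratio between single libraries. That favours such an excess, and the share of all genes with it was not counted. The count of 65 is therefore a description only.

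Replicate 1 on WB was more than 2-fold above both other WB libraries in 6 members and more than 2-fold below both in 1, while replicates 2 and 3 on WB were so in none. It was the highest WB library in 48 members, and replicate 3 was the lowest in 51. POX01694 had 1591 FPKM in replicate 1 on WB against 331 and 310.2 FPKM in replicates 2 and 3, with 1262, 954 and 1278 FPKM on WR and 1371, 954 and 1088 FPKM on WB plus AV. Its EU2101 means were within 1.57-fold with that library and 3.63-fold apart without it.

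Without replicate 1 on WB the rule chose 60 genes, of which 58 were members before. Of the 22 members that dropped out, 17 exceeded the EU2101 fold limit and 11 left the 300 highest on WB, 6 of them for both reasons. WB became the lowest EU2101 group in 18 of the 22 and the highest in 4. They included 15 of the 20 members with WB lowest and MuKu70 highest, and 42 of the 60 genes then chosen were within 2-fold over all 5 groups. Leaving out replicate 2 or replicate 3 on WB instead gave 100 and 101 genes. Of the 80 members, 53 were chosen whichever of the 15 libraries was left out.

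For the comparisons whose means the rule used, the calls are given with no reading. In WR against WB edgeR called 5 of the 80 members, with 16.3% of 8079 genes called. Without replicate 1 on WB it called 30 members, with 36.3% of genes called, and without any other single library of these groups none. In WB plus AV against WB it called 0, with 1.18% of genes called, while 7 members had an unadjusted p under 0.05, DESeq2 called 2, with 6.43% of genes called, and limma on log2(FPKM + 1) called 0, with 0.822% of genes called. Without replicate 1 on WB edgeR called 13, with 21.7% of genes called. In WR against WB plus AV it called 0, with 5.09% of genes called, while 13 members had an unadjusted p under 0.05, DESeq2 called 4, with 7.35% of genes called, and limma on log2(FPKM + 1) called 0, with 2.83% of genes called. With the replicate number as a block, which the samples of these groups bear out, 5 members were called between WR and WB plus AV, with 10.8% of genes called. In MuPOX03016 against MuKu70 it called 6, with 18.4% of 7931 genes called, and 1 without MuKu70 replicate 1, with 6.78% of genes called. Over all 5 comparisons 28 members were called in none, where 29.6% of the 7624 genes tested in all 5 were called in none, and 4 of the 5 are those whose means the rule bounded. Among the 28 were POX06702, POX09287, POX06393, POX02144, POX01336, POX09666 and POX09667.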

How the data were processed

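Gene expression was measured by RNA sequencing in 15 libraries of mycelium in 5 groups of 3, grouped by title. Each file lists identifiers with 2 values per the file headers: an expected count, an estimated read count per gene that need not be whole, and an FPKM value computed by the authors. The deposited files leave out genes without reads, which were taken as 0. The submitters' processing notes name RSEM 1.2.12, Bowtie2 2.1.0, DESeq2 and BWA 0.7.10-r789 without their roles. The genome build is not given in the sources used here. Counts were rounded, filtered with filterByExpr at 10 as minimum count, scaled by TMM and tested by quasi-likelihood in edgeR 4.0.16 under R 4.3.3. P-values were adjusted by Benjamini-Hochberg over every tested gene and called at 0.05, with the EU2101 groups fitted together and each strain comparison on its own 6 libraries. Standard errors are the log2 fold change over the square root of F. Limma 3.58.1 was run on log2(FPKM + 1) for genes with a mean of at least 1 FPKM, a scale that understates changes of low genes, and DESeq2 1.42.0 was run on counts. TPM was FPKM rescaled to 1 sum per library. The gene length behind the values is the count divided by FPKM and by the summed counts, as the median over libraries with at least 20 counts and 5 FPKM. A count within 1e-06 of a whole number was called whole. All pairs of replicates differed by more than counting noise, with a chi-square between 8.3 and 59.9 for each degree of freedom. Same-numbered samples deviated together in WB plus AV against WB (r of 0.49, 0.46 and 0.33 across genes for replicates 1, 2 and 3). They also did in WR against WB plus AV (0.23, 0.30 and 0.16), a pairing read from the data. The other comparisons were taken as not paired. Their r was 0.06, 0.23 and 0.12 in WR against WB and 0.01, 0.14 and 0.07 in MuKu70 against WR. In MuPOX03016 against MuKu70 it was 0.04, 0.26 and 0.34, so that the lack of pairing there rests on replicate 1. The edgeR script was tested on simulated data. Members were named by level, by smallest and largest spread, by largest called change between MuKu70 and EU2101 on WR and by nearness to a threshold. The members, lists and rules were chosen with earlier results of these data known.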

Additional observations from a re-analysis of the deposited data

How the results depend on the processing

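The rule chose between 74 and 84 genes with TPM, with median-ratio scaling or with 1 library other than those on WB left out, 65 with group medians, 46 with the top 200, 119 with the top 400, 38 with a 1.5-fold and 103 with a 3-fold limit. Over all leave-one-out choices it gave 60 to 101 genes, of which 42 to 57 lay within the limit over all 5 groups, and that number was 31 for the top 200, 15 for the 1.5-fold limit and 82 for the 3-fold limit. The members' share in counts, 9.78% in MuPOX03016, 9.81% in MuKu70, 7.24% on WR, 7.17% on WB plus AV and 7.73% on WB, was below the share in FPKM. Between MuKu70 and EU2101 on WR, 40 to 52 members and 4557 to 5369 genes were called over the alternatives that kept all genes. With 1 library left out, 40 to 50 members and 4557 to 5018 genes were called. Whole counts alone gave 36 of 69 members and 4068 of 6937 genes. The same length alone gave 23 of 49 members and 2671 of 5192 genes, and both of these fits used fewer genes. A replicate block gave 44 members and 5103 of 8287 genes. POX06677 reversed to -0.057 in limma on log2(FPKM + 1), with or without a filter, and on log2(FPKM + 5), and the cause was not tested. For WR against WB, DESeq2 called 22 members and 1750 of 8812 genes. Upper-quartile scaling gave 3 members and 1191 of 8079 genes. Limma on log2(FPKM + 1) called 2 members with or without a filter, with 1111 of 8762 and 1067 of 9373 genes called. On log2(FPKM + 5) it called 8 members and 1220 of 8762 genes. A replicate block, whose pairing was not borne out, gave 21 members and 2291 of 8079 genes. With 1 library left out, 0 to 30 members and 548 to 2962 genes were called. For WB plus AV against WB, DESeq2 called 2 members and 543 of 8448 genes. The replicate block gave 0 members and 510 of 8079 genes, and leaving out 1 library 0 to 13 members and 4 to 1769 genes. For WR against WB plus AV, DESeq2 called 4 members and 648 of 8812 genes, and limma on log2(FPKM + 5) 1 member and 334 of 8762 genes. The replicate block gave 5 members and 873 of 8079 genes, and leaving out 1 library 0 members and 155 to 393 genes. For MuPOX03016 against MuKu70, DESeq2 called 10 members and 1668 of 8765 genes. The replicate block gave 10 members and 1797 of 7931 genes, and leaving out 1 library 1 to 5 members and 542 to 1270 genes. POX05882 reversed to -0.307, -0.306 and -0.307 in the same 3 fits, where it was called lower, and POX09666 and POX09667, not called by edgeR, reversed to -0.011 and -0.019 with upper-quartile scaling. Both were called higher in the 3 limma fits, and POX09666 also with the same length alone. POX07582 was not called in the 3 limma fits. The causes were not tested. The other 11 members whose change between MuKu70 and EU2101 on WR was recomputed kept their direction and side of the threshold. Every member had at least 140 counts in each library, and 3 libraries a group limit the precision.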

Other observations

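POX05569, named for its values, was the member with the largest spread between replicates, 5.76-fold in MuPOX03016. It stood at 497, 2861 and 1055 FPKM in MuPOX03016 and 733, 2347 and 523 FPKM in MuKu70, against 942, 1052 and 1164 FPKM in EU2101 on WR. It stood at 438, 1179 and 632 FPKM on WB plus AV and at 1073, 1387 and 993 FPKM on WB. Replicate 2 was the highest library in 4 of the 5 groups, the exception being EU2101 on WR, and the targeted gene POX03016 was also highest in replicate 2 of each group. Its group means met the fold limits while single libraries ranged over 6.53-fold.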
